A study of Homo sapiens with 6 samples.

Results

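Collagen chain genes encode the polypeptides that wind into the triple helices of the extracellular matrix. They were taken from the deposited gene table as every symbol made of COL, a number, A and a number, whatever its level. This rule found 44 genes among 19475 gene symbols. By collagen class, 11 were fibrillar, 6 belonged to the basement membrane, 10 were FACIT collagens (fibril-associated collagens with interrupted helices) and 17 were of other types. RNA was sequenced from MH7A cells, a line of synovial fibroblasts from a joint with rheumatoid arthritis that was immortalised with a viral large T antigen. Cells of the TNF plus LED group (replicates 4, 6 and 10) received TNFα at 10 ng/ml and red light from a 630 nm LED, given for 15 min, 3 times. Cells of the TNF group (replicates 2, 8 and 14) received TNFα at 10 ng/ml and no light. Both groups thus carry the cytokine, and light cannot be told apart from anything else that went with the lamp, since no sham-exposed cells are among the samples.

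Synovial fibroblasts secrete much of the matrix of the joint lining. Fibrillar collagens give tensile strength, type IV collagen forms the sheet-like network of basement membranes, FACIT collagens sit on the surface of fibrils, and type VI collagen forms beaded filaments around cells. Each chain is hydroxylated and folded in the endoplasmic reticulum with the help of dedicated enzymes and a dedicated chaperone, is then secreted, trimmed and crosslinked, and is degraded by collagenases and by uptake into cells.

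The 6 type IV genes lie in head-to-head pairs that are transcribed away from each other, and the shared stretch between COL4A1 and COL4A2 is shown because COL4A1 was lower in TNF plus LED cells than in TNF cells. In the RefSeq starts on GRCh38.p14, 126 bases separate COL4A1 (minus strand) from COL4A2 (plus strand), at chr13:110307158-110307283, 418 bases separate COL4A4 from COL4A3 and 379 separate the closest starts of COL4A6 and COL4A5. The stretch is printed on the plus strand, towards COL4A2. Capitals mark, in order, CCAAT, CCCTCCCC and GGGCGG, which do not overlap.
COL4A1-COL4A2 shared promoter: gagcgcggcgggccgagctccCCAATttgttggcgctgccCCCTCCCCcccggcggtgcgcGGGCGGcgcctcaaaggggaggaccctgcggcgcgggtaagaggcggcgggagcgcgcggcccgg
G and C make up 80.2% of these bases. Of 35116 RefSeq promoter windows (250 bases before to 50 after a start, both strands searched), 34.6% hold CCAAT, 13.6% hold CCCTCCCC and 45.0% hold GGGCGG. A promoter window was matched for 32 of the 44 collagen genes, 44 windows in all. The second sequence is the promoter of SERPINH1, which encodes HSP47, the collagen-specific chaperone of the endoplasmic reticulum, shown because its transcript rose in TNF plus LED cells. It lies at chr11:75562147-75562219 on the plus strand of the same build, and capitals mark the match to the heat shock element TTCNNGAANNTTC, which ends 63 bases before the start.
SERPINH1 promoter: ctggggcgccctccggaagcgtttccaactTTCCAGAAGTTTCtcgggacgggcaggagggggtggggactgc
This element was found in 0.490% of all windows and in 0 of the 44 windows of collagen genes. With so rare an element, 0 of 44 says little. Collagen genes without a window, among them COL1A1, COL1A2, COL3A1 and COL2A1, were not searched. A match is a match of letters and not a measured binding site.

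The deposited values are estimated counts, with totals from 86000253 to 108074289 units per library. About 4 units appeared to stand for a single sequenced fragment, so 12 units (0.108 to 0.138 in counts scaled to library size, CPM) are taken as the limit that a count of 0 allows, for counting error only. CPM were scaled by TMM, which corrects for differences in library composition. Of 14 fibroblast markers outside the collagens, 13 were at 1 CPM or more in every library, among them VIM, THY1 and PDGFRB. PRG4, which encodes lubricin of the lining, was at most 0.0787 CPM. CD3E and MS4A1 of lymphocytes, CDH5 of endothelium and KRT5 and KRT14 of keratinocytes were at 0 in every library. Other markers on the same lists were above 0. Of the macrophage and leukocyte markers, CD68 had 113 to 153 CPM in TNF plus LED libraries and 92.2 to 137 CPM in TNF libraries. MRC1, a macrophage receptor, had 18, 50 and 25 units in TNF plus LED replicates 4, 6 and 10 and 0 in all TNF libraries, at least 2.54-fold higher against the floor. It was called higher (adjusted p = 0.0322 by edgeR), and of the single-library omissions the call held only without TNF replicate 2, with values up to 0.145. MRC1 passed the filter on low counts only through the TNF plus LED libraries, so it had to differ to be tested at all. CSF1R had 0.902 to 1.82 CPM in TNF plus LED and 0.511 to 1.14 CPM in TNF libraries, and CD163 at most 0.322 CPM. Of the epithelial markers, KRT18 had 30.02 to 46.2 CPM in TNF plus LED and 28.4 to 34.9 CPM in TNF libraries, and KRT8 had 6.87 to 9.35 CPM in TNF plus LED and 5.79 to 6.42 CPM in TNF libraries, without overlap (adjusted p = 0.361 by edgeR). TNF replicate 8 stood apart in the collagens: of the 23 collagen genes with a mean of at least 10 CPM in either group, it was below both other TNF libraries in 18 and the lowest of all 6 libraries in 8. TNF replicate 8 and LED replicate 6 were each the farthest from the other libraries of their group in the counts over all genes, and results are also given with both left out. Both were picked for this distance, so leaving them out narrows the spread within groups. The p-values of that fit are therefore biased low and are no independent support.

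Collagen transcripts were among the most abundant of these cells. COL1A1, the main chain of type I collagen, had the highest mean count of any gene, COL6A3 ranked 5 and COL1A2 ranked 10. Together the 44 genes took 3.54%, 3.26% and 4.09% of all counts in TNF plus LED replicates 4, 6 and 10, against 4.61%, 4.00% and 4.66% in TNF replicates 2, 8 and 14. The means were 3.63% ± 0.423 and 4.43% ± 0.369 (SD, n = 3 each). LED replicate 10 and TNF replicate 8 overlap in this share, which was not tested. In such bulk samples fewer cells of a kind and less RNA per cell cannot be told apart. Per kilobase of transcript (CPM divided by the length of the longest coding transcript in GENCODE 29), COL1A1 averaged 1458 in TNF plus LED and 1951 in TNF libraries, COL6A2 889 and 949, COL1A2 772 and 928, COL6A3 563 and 577, COL6A1 483 and 501, COL4A2 416 and 519, COL4A1 309 and 503, and COL3A1 434 and 354. The next were COL5A2 at 149 and 171, COL5A1 at 88.8 and 112, and COL12A1 at 79.8 and 120, while COL24A1 was the lowest of the 23 in both groups, at 1.79 and 2.05. COL1A1 lay above the other collagens in every library, while COL6A2 and COL1A2 overlapped in range in both groups. COL6A3 overlapped COL3A1 in the TNF plus LED group and COL4A2 in the TNF group. COL6A1, COL3A1 and COL4A2 overlapped in the TNF plus LED group, and so did COL4A2, COL4A1 and COL6A1 in the TNF group.

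**Figure D1:**
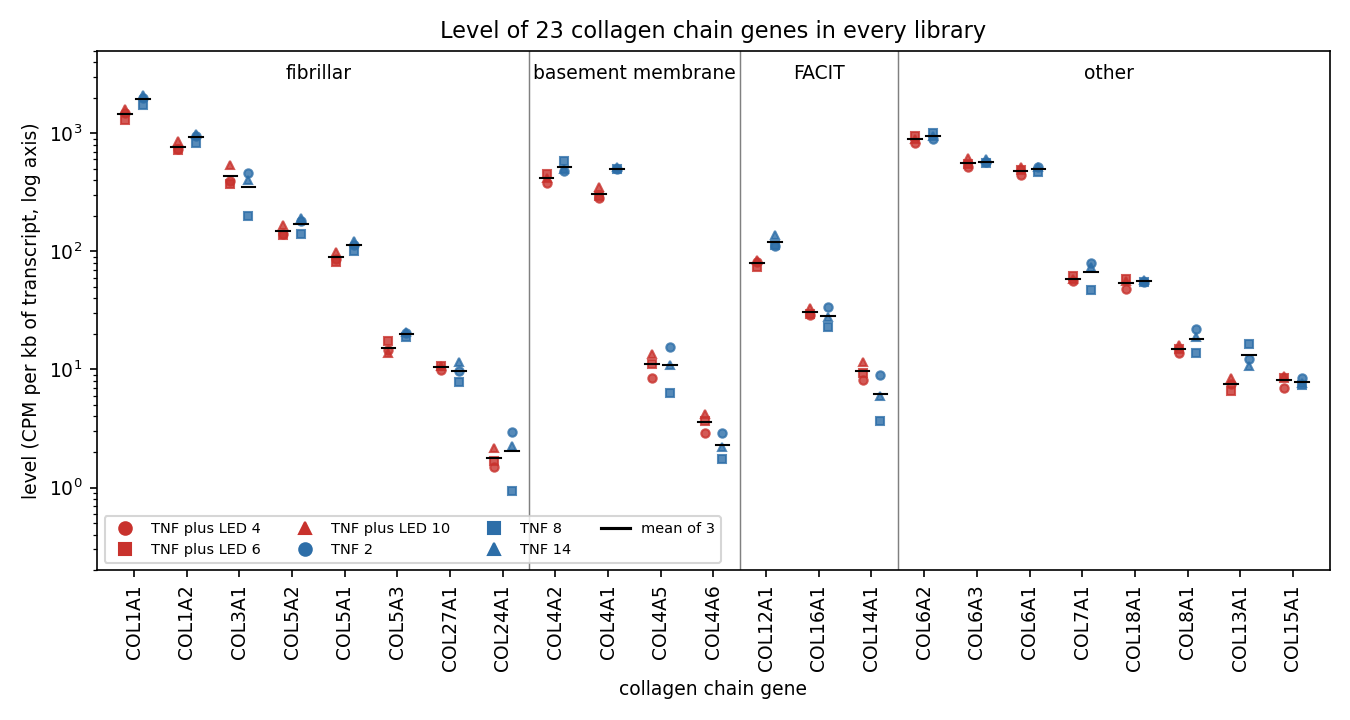
Level per kilobase of transcript (log axis) of the 23 collagen chain genes with a mean of at least 10 CPM in either group, by class. Each point is a library, its shape gives the replicate and the bar is the mean of 3. COL1A1 averaged 1458 in TNF plus LED and 1951 in TNF libraries, and TNF replicate 8 (blue squares) lies low for COL3A1, COL4A5 and COL14A1.

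Few collagen genes passed the test between light-exposed and other cells. After the filter on low counts 34 of the 44 entered the test across all genes. COL4A1 fell, COL2A1 and COL26A1 rose against TNF libraries that had no counts, and 31 did not pass an adjusted p of 0.05 (edgeR's quasi-likelihood test, Benjamini-Hochberg over 13794 genes). Over all genes tested, 2.44% were called higher and 2.73% lower, so that 2 and 1 of 34 collagen genes are near the background. COL2A1 and COL26A1 passed the filter only through the TNF plus LED libraries, where they had to differ to be tested at all. The groups did not overlap for 10 tested collagen genes, against 32.4% of all genes tested. Among the 23 genes with at least 10 CPM, 7 did not overlap, a share near that of all genes tested. All 7 were lower in TNF plus LED, namely COL1A1, COL5A1, COL5A3, COL4A1, COL4A2, COL12A1 and COL13A1. The direction of groups that do not overlap was not counted over all genes. Log2 fold changes of the 23 lay between -0.80 and 0.65, with 16 negative and a median of -0.19. Over all genes tested 49.2% were negative and the median was 0.01. The 23 genes were measured in the same 6 libraries and are not independent of one another, and their shared direction was not tested. With LED replicate 6 and TNF replicate 8 left out, 5 collagen genes were called lower (COL4A1, COL5A3, COL7A1, COL12A1 and COL13A1) and 2 higher (COL2A1 and COL11A2). COL2A1 and COL11A2 had 0 units in TNF replicates 2 and 14, so there both passed the filter only through TNF plus LED libraries. They had to differ to be tested at all, and these 2 calls are no independent evidence of a rise. In that fit, whose p-values are biased low by the choice of libraries, 6.54% of all genes tested were called lower and 5.51% higher. DESeq2 called 3 lower, namely COL4A1, COL12A1 and COL13A1, and 2 higher, COL2A1 and COL26A1, where 6.37% of all genes were called lower and 6.34% higher.

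**Figure D2:**
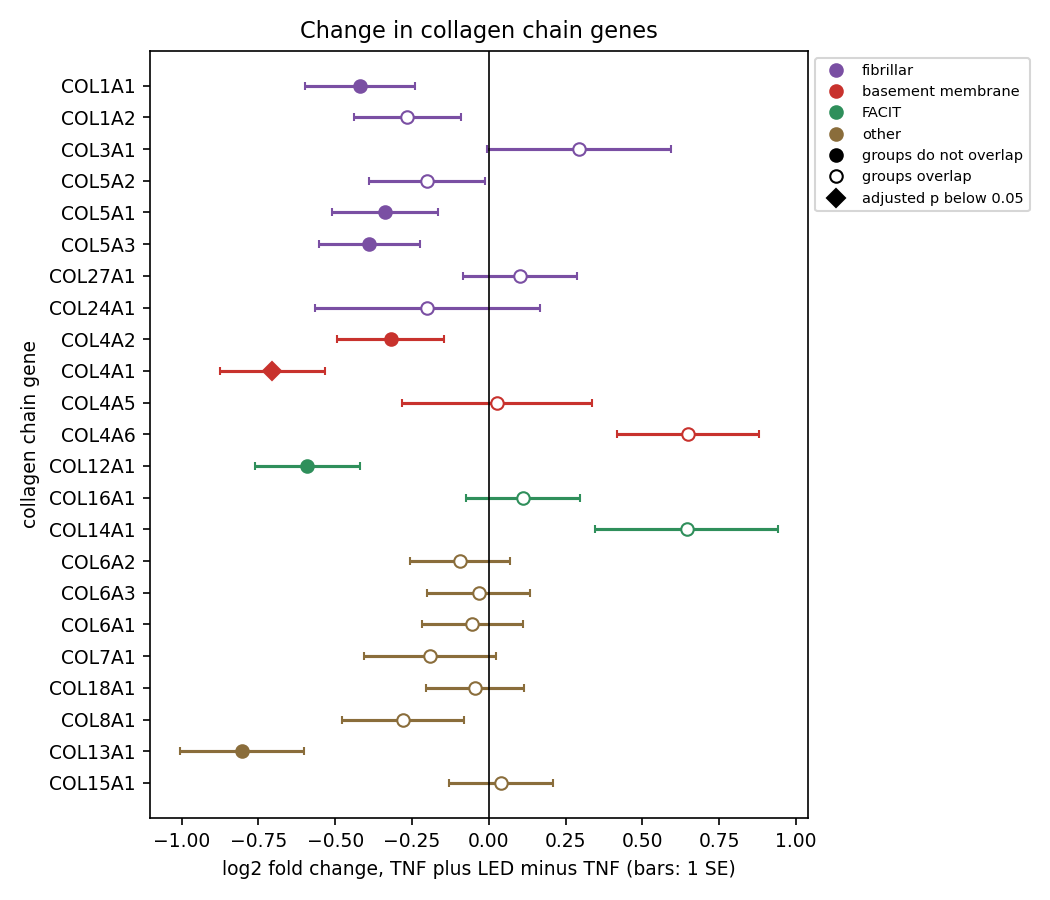
Log2 fold change (TNF plus LED minus TNF) with 1 SE for the 23 collagen chain genes with a mean of at least 10 CPM, coloured by class. Filled points mark groups that do not overlap and the diamond marks COL4A1, whose log2 fold change of -0.70 passed the threshold. The 3 type VI genes lie between -0.09 and -0.03.

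Among basement membrane collagens, COL4A1 fell and its partner COL4A2 did not pass. These genes encode the chains of the type IV network that is present in most basement membranes. COL4A1 (ENSG00000187498.15, GRCh38 chromosome 13, 110148963 to 110307233, minus strand, 52 exons in its longest coding transcript) had 1868, 1938 and 2318 CPM in TNF plus LED replicates 4, 6 and 10, against 3295, 3269 and 3418 CPM in TNF replicates 2, 8 and 14. The TNF libraries lay within a narrow range and every light-exposed library was well below it, with means of 2041 ± 242 and 3327 ± 79.4 CPM (SD, n = 3 each). The log2 fold change was -0.70 ± 0.17 (SE), with an adjusted p of 0.0475 by edgeR. This call lay close to the threshold: it was lost in each of the 6 single-library omissions, with an adjusted p from 0.0605 to 0.217, while the log2 fold change stayed between -0.81 and -0.63. Without both TNF replicate 8 and LED replicate 6 the adjusted p was 0.0249, a value biased low by that choice of libraries. Endothelial cells are also rich in type IV collagen. Of 6 endothelial markers 2, TEK and KDR, were at 1 CPM or more in every library, CDH5 was at 0, and the summed level was 67.4 to 83.8 CPM in TNF plus LED and 81.8 to 118 CPM in TNF libraries. Most of this sum was TEK, at 56.7 to 75.2 CPM in TNF plus LED and 77.7 to 112 CPM in TNF libraries. VWF lay the other way, at 1.44 to 1.93 CPM in TNF plus LED and 0.369 to 1.10 CPM in TNF libraries, and KDR overlapped at 6.79 to 9.20 CPM in TNF plus LED and 3.51 to 9.04 CPM in TNF libraries. None of the 3 passed the test (adjusted p = 0.106, 0.130 and 0.520 by edgeR for TEK, VWF and KDR). Their part in the COL4A1 difference was not tested.

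COL4A2, on the other side of the shared promoter, had 2448, 2926 and 2729 CPM in TNF plus LED replicates 4, 6 and 10 and 3111, 3757 and 3245 CPM in TNF replicates 2, 8 and 14. Its groups did not overlap either, but the difference was smaller, at -0.32 ± 0.17 on the log2 scale (adjusted p = 0.312 by edgeR). The ratio of COL4A1 to COL4A2, per kilobase of transcript and free of any scaling between libraries, was 0.749, 0.650 and 0.834 in TNF plus LED replicates 4, 6 and 10, and 1.04, 0.854 and 1.03 in TNF replicates 2, 8 and 14. The ratio thus fell on separate sides in the groups, by a small margin between LED replicate 10 and TNF replicate 8, and was not tested. Genes antisense to COL4A2 share 0.732% of its exon bases, and no source used here says whether reads were counted by strand.

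**Figure D3:**
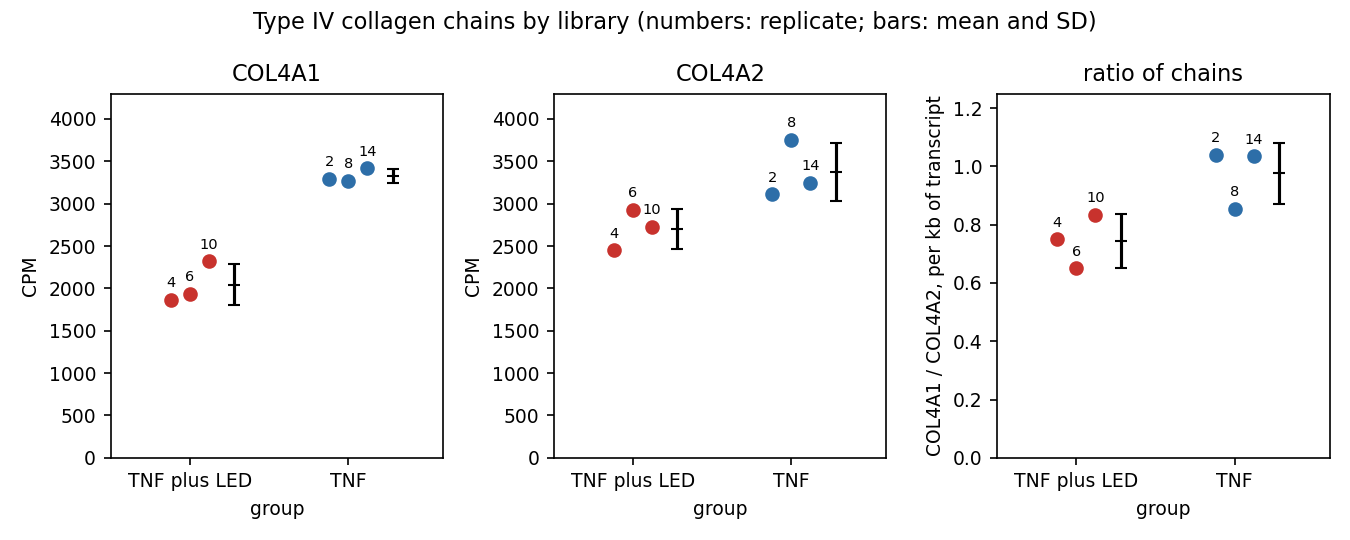
CPM of COL4A1 and COL4A2 and the ratio of the chains per kilobase of transcript, in each library (replicate numbers beside the points), with mean and SD to the right. COL4A1 averaged 2041 CPM in TNF plus LED and 3327 CPM in TNF libraries, and the chain ratio averaged 0.744 and 0.976.

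The minor type IV chains overlapped between the groups. COL4A6, found in the basement membranes of smooth muscle and epithelia, had 19.4, 25.0 and 28.3 CPM in TNF plus LED replicates 4, 6 and 10 and 19.5, 11.8 and 15.02 CPM in TNF replicates 2, 8 and 14. LED replicate 4 and TNF replicate 2 were level, and the log2 fold change of 0.65 ± 0.23 did not pass (adjusted p = 0.135 by edgeR). Without TNF replicate 8, its lowest library, it was 0.49. COL4A5, the X-linked chain mutated in Alport syndrome, had 55.1, 71.8 and 88.3 CPM in TNF plus LED replicates 4, 6 and 10, against 99.9, 41.0 and 70.4 CPM in TNF replicates 2, 8 and 14. The TNF libraries alone spanned more than the light-exposed ones. COL4A4, a chain of the kidney filter, had at most 0.315 CPM in any library, and COL4A3 had at most 8 units and was not tested.

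No fibrillar collagen of at least 10 CPM passed the test with edgeR, DESeq2 or limma-voom, and COL1A1 and COL5A3 had an unadjusted p below 0.05. COL1A1 had 9947, 8705 and 10778 CPM in TNF plus LED replicates 4, 6 and 10, against 13331, 11776 and 14262 CPM in TNF replicates 2, 8 and 14. All light-exposed libraries were below all TNF libraries, with means of 9810 ± 1043 and 13123 ± 1256 CPM (SD, n = 3 each), and the log2 fold change of -0.42 ± 0.18 had an adjusted p of 0.200 by edgeR. COL1A2, which encodes the other type I chain, had 3948, 3914 and 4674 CPM in TNF plus LED replicates 4, 6 and 10, and 5170, 4519 and 5372 CPM in TNF replicates 2, 8 and 14. Here LED replicate 10 lay above TNF replicate 8 (log2 fold change -0.26 ± 0.17, adjusted p = 0.411). Per kilobase, COL1A1 stood to COL1A2 at 2.03, 1.79 and 1.85 in TNF plus LED replicates 4, 6 and 10 and at 2.07, 2.10 and 2.14 in TNF replicates 2, 8 and 14. The TNF libraries were close to one another in this ratio and LED replicate 4 was just below them.

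COL3A1 encodes the chain of type III collagen, which is rich in stretchable organs and in healing wounds. It had 2171, 2066 and 2978 CPM in TNF plus LED replicates 4, 6 and 10, and 2547, 1110 and 2228 CPM in TNF replicates 2, 8 and 14. TNF replicate 8 was far below all other libraries, and the log2 fold change of 0.29 ± 0.30 (adjusted p = 0.611 by edgeR) was 0.01 without it. The ratio of COL3A1 to COL1A1 per kilobase, chosen after values were seen, was 0.265, 0.288 and 0.335 in TNF plus LED replicates 4, 6 and 10, and 0.232, 0.114 and 0.190 in TNF replicates 2, 8 and 14. It was higher in every light-exposed library, also with TNF replicate 8 set aside, and was not tested.

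Type V collagen starts fibrils and limits their width. COL5A1 had 731, 687 and 838 CPM in TNF plus LED replicates 4, 6 and 10, against 966, 852 and 1035 CPM in TNF replicates 2, 8 and 14. The groups just failed to overlap, and the log2 fold change was -0.34 ± 0.17 (adjusted p = 0.282 by edgeR). COL5A3 had 90.5, 107 and 85.0 CPM in TNF plus LED replicates 4, 6 and 10, against 126, 117 and 127 CPM in TNF replicates 2, 8 and 14, also without overlap (-0.39 ± 0.16, adjusted p = 0.198). It passed, at an adjusted p of 0.0136 by edgeR, when TNF replicate 8 and LED replicate 6 were both left out, a value biased low by that choice. COL5A2 had 1002, 980 and 1182 CPM in TNF plus LED replicates 4, 6 and 10, and 1279, 985 and 1370 CPM in TNF replicates 2, 8 and 14, where TNF replicate 8 fell among the light-exposed libraries. COL5A1 stood to COL5A2 per kilobase at 0.610, 0.586 and 0.593 in TNF plus LED and at 0.631, 0.723 and 0.632 in TNF libraries, without overlap.

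The remaining fibrillar genes were lower in level. COL27A1, a cartilage-associated fibrillar chain, had 77.2, 82.9 and 83.8 CPM in TNF plus LED replicates 4, 6 and 10 and 75.8, 61.0 and 90.4 CPM in TNF replicates 2, 8 and 14. The TNF libraries enclosed the light-exposed ones. COL24A1 had 10.2, 11.5 and 14.9 CPM in TNF plus LED replicates 4, 6 and 10, and 20.4, 6.36 and 15.3 CPM in TNF replicates 2, 8 and 14. It was likewise enclosed, with a log2 fold change of -0.20 ± 0.37. COL11A1, a chain of cartilage fibrils that is also made by activated fibroblasts, lay between 6.30 and 8.74 CPM in TNF plus LED and between 6.46 and 6.76 CPM in TNF libraries.

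Some chains of cartilage had trace counts in light-exposed cells. COL2A1, the main collagen of cartilage (GRCh38 chromosome 12), had 95, 44 and 34 units in TNF plus LED replicates 4, 6 and 10, and 0 units in each TNF library. This is about 23.8, 11 and 8.5 fragments, or a mean of 0.562 ± 0.293 CPM in TNF plus LED libraries. Against the floor of 12 units per library in the TNF group it was at least 4.63-fold higher (adjusted p = 0.0172 by edgeR). The call was lost without LED replicate 4 or 6 or TNF replicate 14, with an adjusted p of up to 0.0967, and with counts divided by 4 the gene was too low to be tested. COL11A2, a partner chain of type XI collagen (chromosome 6), had 35, 195 and 18 units in TNF plus LED replicates 4, 6 and 10, against 0, 10 and 0 units in TNF replicates 2, 8 and 14. LED replicate 6 carried most of it, and the log2 fold change of 4.57 ± 1.39 did not pass (adjusted p = 0.0902 by edgeR). COL11A2 reached the filter's level in 3 TNF plus LED libraries and in 1 TNF library. COL26A1 (chromosome 7), a collagen described in mouse testis and ovary, had 23, 25 and 20 units in TNF plus LED and 0 in all TNF libraries, at least 1.85-fold higher against the same floor (adjusted p = 0.0339). About 5 to 6.2 fragments per library stand behind this call, which was lost in every single-library omission (up to 0.144), without LED replicate 6 and TNF replicate 8 together (0.0533) and without the filter (0.0602). Both COL2A1 and COL26A1 passed the filter only through the TNF plus LED libraries, so their adjusted p-values are no independent evidence of a rise. Among 6 muscle and chondrocyte markers, MYOD1 was at 0 in every library, the aggrecan gene ACAN was at most 0.148 CPM, and the summed level was 33.1 to 43.5 CPM in TNF plus LED and 19.7 to 26.7 CPM in TNF libraries. Nearly all of it was SOX9, a transcription factor of cartilage, at 43.0, 34.5 and 32.5 CPM in TNF plus LED replicates 4, 6 and 10, against 19.0, 26.1 and 22.2 CPM in TNF replicates 2, 8 and 14 (log2 fold change 0.71 ± 0.19, adjusted p = 0.0654 by edgeR). Its part in the counts of COL2A1 and COL11A2 was not tested. COL9A2 and COL9A3, chains of the cartilage FACIT type IX, had at most 0.819 CPM with overlapping groups, COL9A1 was at 0 in every library, and COL10A1 of growth plate cartilage had at most 0.368 CPM.

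**Figure D4:**
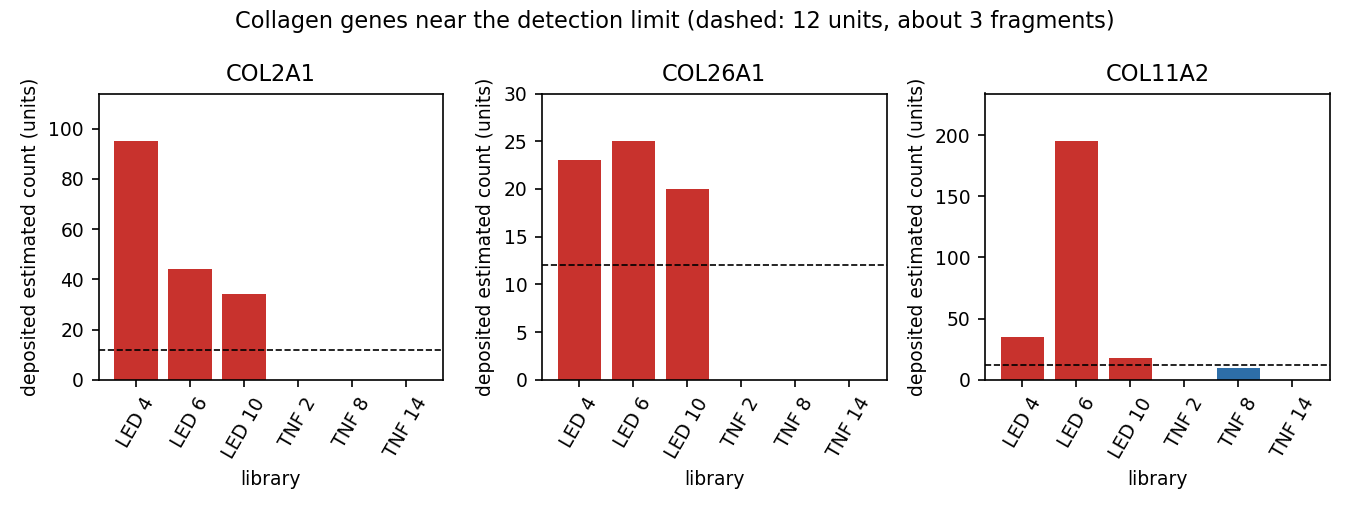
Deposited estimated counts (units) of COL2A1, COL26A1 and COL11A2 in each library, with the limit of 12 units dashed. COL2A1 and COL26A1 were above the limit in all 3 TNF plus LED libraries and at 0 in all TNF libraries, and COL11A2 reached 195 units in LED replicate 6.

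Of the FACIT collagens, COL12A1 had the clearest difference. It encodes type XII collagen, which lies on type I fibrils in tissue under strain. It had 946, 866 and 995 CPM in TNF plus LED replicates 4, 6 and 10, against 1294, 1334 and 1599 CPM in TNF replicates 2, 8 and 14. The groups were well apart, with means of 936 ± 64.8 and 1409 ± 166 CPM (SD, n = 3 each), but the log2 fold change of -0.59 ± 0.17 did not pass with edgeR (adjusted p = 0.0808). The adjusted p was 0.0155 by DESeq2. By edgeR without LED replicate 6 and TNF replicate 8 it was 0.0346, a value biased low by that choice of libraries. COL14A1, its close relative, was at 52.7, 60.1 and 74.4 CPM in TNF plus LED replicates 4, 6 and 10 and 57.5, 23.7 and 38.6 CPM in TNF replicates 2, 8 and 14. TNF replicate 2 fell among the light-exposed libraries, and the log2 fold change of 0.64 ± 0.30 (adjusted p = 0.239) was 0.38 without TNF replicate 8. COL16A1 had 165, 170 and 189 CPM in TNF plus LED replicates 4, 6 and 10 and 193, 132 and 160 CPM in TNF replicates 2, 8 and 14, with the light-exposed libraries inside the range of the others. COL21A1 had at most 0.388 CPM, while COL19A1 (at most 12 units), COL20A1 (23 units in LED replicate 6 and 0 elsewhere) and COL22A1 (0 throughout) were not tested.

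The type VI chains gave small differences with overlapping groups. COL6A1, COL6A2 and COL6A3 form its common heterotrimer. COL6A1 had 1874, 2084 and 2177 CPM in TNF plus LED replicates 4, 6 and 10, and 2190, 1999 and 2177 CPM in TNF replicates 2, 8 and 14. COL6A2 had 2865, 3270 and 3101 CPM in TNF plus LED replicates 4, 6 and 10, and 3122, 3472 and 3264 CPM in TNF replicates 2, 8 and 14. COL6A3 had 5605, 5875 and 6689 CPM in TNF plus LED replicates 4, 6 and 10, and 6103, 5970 and 6518 CPM in TNF replicates 2, 8 and 14. None of the 3 chains separated the groups, and the log2 fold changes were -0.05 ± 0.16, -0.09 ± 0.16 and -0.03 ± 0.17. Per kilobase COL6A3 stood to COL6A1 at 1.17 ± 0.0511 in TNF plus LED and 1.15 ± 0.0464 in TNF libraries (SD, n = 3 each). The type VI genes made up 30.5% ± 1.37 of all collagen counts in TNF plus LED and 26.6% ± 1.44 in TNF libraries, and the basement membrane genes 13.2% ± 0.852 and 15.6% ± 1.65. These shares also depend on the collagen total, which averaged 3.63% of all counts in TNF plus LED and 4.43% in TNF libraries. Of all counts, the type VI genes took 1.10% ± 0.0993 in TNF plus LED and 1.18% ± 0.0384 in TNF libraries, with overlap. COL6A5 was at 0 in every library and COL6A6 had at most 12 units.

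COL13A1, a transmembrane collagen of cell-matrix and nerve-muscle contacts, came closest to the threshold among the collagen genes that missed it. It had 24.1, 21.0 and 27.0 CPM in TNF plus LED replicates 4, 6 and 10, against 39.4, 52.1 and 34.4 CPM in TNF replicates 2, 8 and 14. The groups were apart, with TNF replicate 8 the highest here (log2 fold change -0.80 ± 0.20, adjusted p = 0.0537 by edgeR). It passed with DESeq2 (0.00719), without the filter (0.0481) and with counts divided by 4 (0.0491). It also passed without both LED replicate 6 and TNF replicate 8 (0.0348, biased low by that choice), where the log2 fold change was -0.53. COL7A1, the anchoring fibril chain that holds epithelia to the tissue below, had 516, 576 and 542 CPM in TNF plus LED replicates 4, 6 and 10, and 741, 440 and 683 CPM in TNF replicates 2, 8 and 14. TNF replicate 8 lay on the other side of the light-exposed libraries from its group. Without it and LED replicate 6 the log2 fold change of COL7A1 was -0.43 (adjusted p = 0.0386 by edgeR), against -0.19 in all libraries. This was the only call of COL7A1 in 16 alternatives, and its p is biased low by that choice of libraries. COL8A1, a short-chain network collagen, had 78.4, 85.9 and 91.9 CPM in TNF plus LED replicates 4, 6 and 10 and 125, 78.8 and 107 CPM in TNF replicates 2, 8 and 14, with TNF replicate 8 again among the light-exposed ones.

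The multiplexins COL15A1 and COL18A1, proteoglycan-like collagens next to basement membranes, overlapped between the groups. COL15A1 had 38.3, 46.3 and 48.5 CPM in TNF plus LED replicates 4, 6 and 10 and 46.9, 40.4 and 42.2 CPM in TNF replicates 2, 8 and 14. COL18A1, the source of endostatin, had 317, 385 and 370 CPM in TNF plus LED replicates 4, 6 and 10, and 364, 364 and 378 CPM in TNF replicates 2, 8 and 14. In GENCODE 29, 20.5% of the exon bases of COL18A1 are shared with SLC19A1 on the other strand, so reads of the pair could be mixed. COL17A1 of the hemidesmosome and COL8A2 had at most 1.57 and 1.14 CPM. COL23A1, COL25A1 and COL28A1 had at most 4, 21 and 24 units and were not tested.

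Genes that make, export and process collagen changed in a few places. For comparison with these lists, edgeR called 2.44% of all genes tested higher and 2.73% lower. Among 13 tested collagen chaperones and export factors SERPINH1 rose, none fell and 12 did not pass. It had 2288, 2027 and 1881 CPM in TNF plus LED replicates 4, 6 and 10, against 985, 811 and 984 CPM in TNF replicates 2, 8 and 14. All light-exposed libraries were far above all TNF libraries, and the log2 fold change was 1.16 ± 0.18 (adjusted p = 0.0122 by edgeR). The call was lost without LED replicate 4 (0.0673) or TNF replicate 14 (0.0578). Of 11 tested enzymes of propeptide cleavage and crosslinking, LOXL1 and ADAMTS2 fell and 9 did not pass. Their median log2 fold change was -0.46, against 0.01 over all genes tested. ADAMTS2, which removes the amino-terminal propeptides of fibrillar procollagens, had 295, 253 and 340 CPM in TNF plus LED replicates 4, 6 and 10, against 494, 552 and 535 CPM in TNF replicates 2, 8 and 14 (-0.83 ± 0.17, adjusted p = 0.0331). LOXL1, a lysyl oxidase that crosslinks collagen and elastin, had 91.0, 81.3 and 98.8 CPM in TNF plus LED replicates 4, 6 and 10, against 150, 187 and 155 CPM in TNF replicates 2, 8 and 14 (-0.86 ± 0.17, adjusted p = 0.0301). The groups were well apart for both, and both calls were lost without TNF replicate 14 or any 1 LED library, with an adjusted p of up to 0.134.

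None of 15 tested hydroxylases and glycosyltransferases passed with edgeR or limma-voom. An unadjusted p below 0.05 by edgeR was found for 4, against 3129 of 13794 over all genes tested. DESeq2 called 3, with P3H2 and P3H4 lower and PLOD2 higher, where 6.37% of all genes were called lower and 6.34% higher. The prolyl 3-hydroxylase P3H2, which acts on type IV collagen, had 273, 225 and 316 CPM in TNF plus LED replicates 4, 6 and 10, against 400, 652 and 476 CPM in TNF replicates 2, 8 and 14 (-0.91 ± 0.22, adjusted p = 0.0503 by edgeR and 0.00321 by DESeq2). PLOD2, the telopeptide lysyl hydroxylase, had 935, 644 and 958 CPM in TNF plus LED replicates 4, 6 and 10, against 473, 247 and 521 CPM in TNF replicates 2, 8 and 14 (1.03 ± 0.29, adjusted p = 0.0737 by edgeR and 0.00543 by DESeq2). The groups did not overlap for either enzyme, which lay on opposite sides. Of 7 tested collagen-cleaving enzymes, the membrane-bound collagenase MMP14 fell and 6 did not pass. MMP14 had 867, 974 and 1075 CPM in TNF plus LED replicates 4, 6 and 10, against 1517, 2279 and 1850 CPM in TNF replicates 2, 8 and 14 (-0.95 ± 0.20, adjusted p = 0.0332 by edgeR). It kept its call in the single-library omissions only without TNF replicate 2, and otherwise had an adjusted p from 0.0527 to 0.143.

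**Figure D5:**
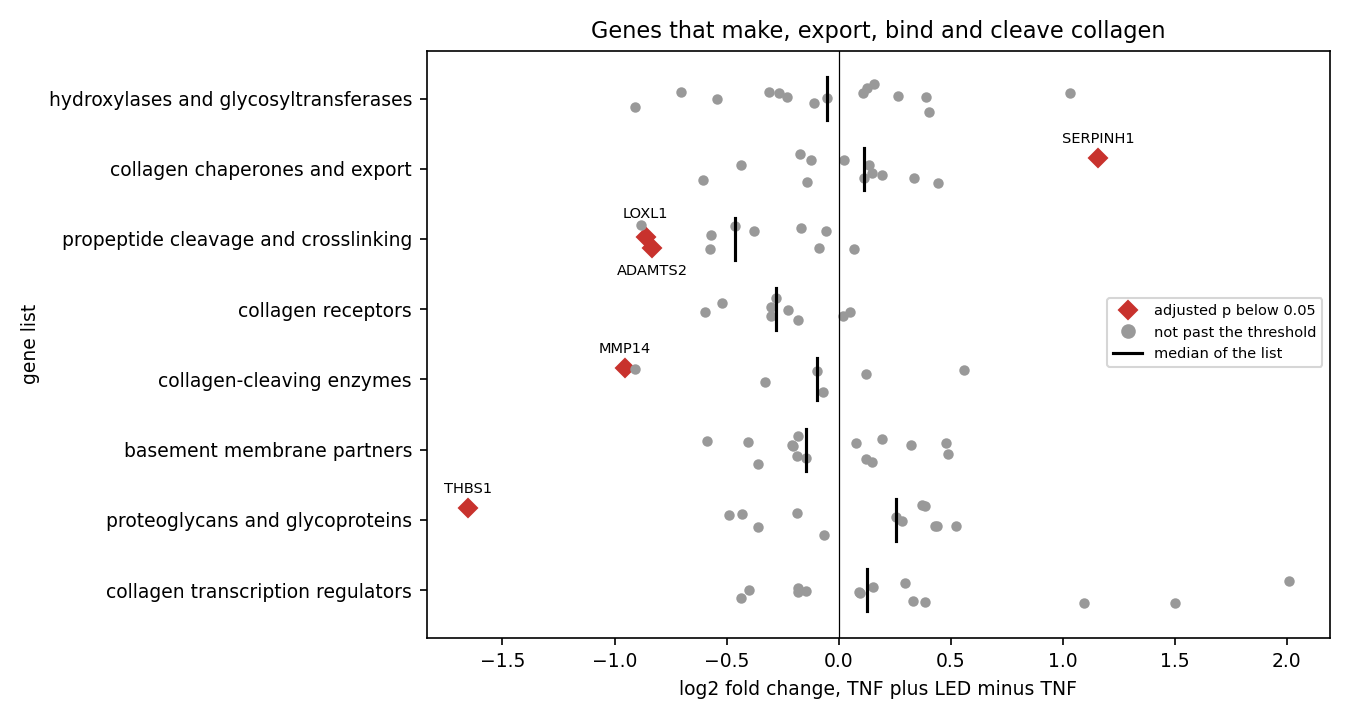
Log2 fold change (TNF plus LED minus TNF) of the tested genes in 8 lists of collagen-related genes, 1 point per gene, with the list median as a bar. SERPINH1, at 1.16, is the called gene on the higher side, and LOXL1, ADAMTS2, MMP14 and THBS1 are the called genes on the lower side.

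Over all genes tested, 3129 of 13794 had an unadjusted p below 0.05 by edgeR, and DESeq2 called 6.37% lower and 6.34% higher. The lists here stand beside those shares. No collagen receptor passed among 9 tested with edgeR, DESeq2 or limma-voom, and 0 had an unadjusted p below 0.05. Without LED replicate 6 and TNF replicate 8, edgeR called ITGA1 and DDR2 lower, where 6.54% of all genes tested were called lower. The p-values of that fit are biased low by the choice of libraries. ITGA11, the integrin subunit for fibrillar collagen, had a log2 fold change of -0.30 ± 0.16, and MRC2, which takes up cleaved collagen, -0.30 ± 0.18 (adjusted p = 0.305 and 0.357 by edgeR). None of 15 tested basement membrane partners passed with edgeR or limma-voom, where 2 had an unadjusted p below 0.05, and DESeq2 called 1, AGRN (adjusted p = 0.0224). AGRN, a heparan sulphate proteoglycan, had 413, 418 and 489 CPM in TNF plus LED replicates 4, 6 and 10 and 569, 705 and 706 CPM in TNF replicates 2, 8 and 14, and LAMC1, the common laminin gamma chain, had 793, 725 and 900 CPM in TNF plus LED and 1049, 1059 and 1092 CPM in TNF libraries. Neither pair of groups overlapped, with log2 fold changes of -0.59 ± 0.17 and -0.40 ± 0.17 (adjusted p = 0.0847 and 0.184). Among 13 tested proteoglycans and glycoproteins of fibrils THBS1, a matricellular protein, fell (-1.66 ± 0.26, adjusted p = 0.0126 by edgeR) and 12 did not pass. Without LED replicate 6 its adjusted p was 0.0732. None of 14 tested transcription regulators of collagen genes passed with edgeR or limma-voom, where 3 had an unadjusted p below 0.05, and DESeq2 called 1, KLF4, higher (adjusted p = 0.00130). KLF4 had 2.60, 7.50 and 1.71 CPM in TNF plus LED replicates 4, 6 and 10 and 0.924, 1.12 and 0.888 CPM in TNF replicates 2, 8 and 14 (2.01 ± 0.51, adjusted p = 0.0551 by edgeR). It passed without the filter (0.0429) and without LED replicate 10 (0.0398). CREB3L1, a membrane-bound factor that drives type I collagen, had a log2 fold change of -0.44 ± 0.17 (adjusted p = 0.169).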

How the data were processed

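The deposited table holds estimated counts per gene symbol, as whole numbers, which entered the tests as deposited. Of the values from 1 to 7, 41.8% equalled 4 and 67.2% were 4 or 5, hence about 4 units per fragment. Tools listed in the submitters' processing notes, with no roles, are StringTie, HISAT2, limma, DESeq2 and bcl2fastq 2.0. The notes list the mouse build mm10 although the samples are human. No human build is named in the sources used here, so coordinates are those of GENCODE 29 or RefSeq.

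The test was edgeR 4.0.16's quasi-likelihood test (R 4.3.3), two-sided, with filterByExpr, TMM and robust dispersions, over all genes, with no covariate. The SE is the log2 fold change divided by the square root of F. Tested on simulated counts of this comparison (13618 genes), it recovered 47 of 100 genes given a log2 change of 1, and 96 of 100 given a log2 change of 2. It made 10 false calls. The changed genes were drawn from those with a mean above 1 CPM. The recovery therefore does not cover genes below that level, such as COL2A1 and COL26A1. Chi-square per degree of freedom between libraries of a group, on counts divided by 4, was 27.9 to 136, so no library repeated another. Alternatives used DESeq2 1.42.0, limma 3.58.1, other filters and scalings, counts divided by 4, and omitted libraries. The labels do not name separate cultures, so p-values cover only the variation among these libraries and it may be technical. Members and lists were chosen with earlier results of these data known. Described in full were the called genes, those of at least 10 CPM, the 4 of lowest p and partners of a called chain, and from each of 8 lists up to 4 called genes or the 2 of lowest p.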

Additional observations from a re-analysis of the deposited data

How the results depend on the processing

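Over all genes 336 were called higher and 377 lower. DESeq2 called 874 and 879, and an adjusted p below 0.1 gave 695 and 776. Leaving out LED replicate 6 with TNF replicate 8, picked for their distance from their groups, gave 763 and 906. Single-library omissions gave 59 to 314 higher and 21 to 423 lower. Of the collagen genes 2 were called higher and 1 lower. The higher calls numbered 1 with no filter, 0 with at least 1 CPM in 3 libraries, 0 with counts divided by 4 (both too strict for COL2A1 and COL26A1), and 0 to 1 in single-library omissions. The lower calls numbered 2 with no filter, 3 with DESeq2, 2 with counts divided by 4, 3 at an adjusted p below 0.1, 5 without LED replicate 6 and TNF replicate 8, and 0 in every single-library omission. Without the 10 genes with the most counts, 3 of them collagens, the collagen share was 1.77% in TNF plus LED and 2.11% in TNF libraries.

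Signs turned in 13 collagen genes, none of them called in any setting run, and the cause was not tested. Without LED replicate 6 and TNF replicate 8, log2 fold changes were -0.25 for COL4A5, 0.31 for COL17A1, -0.036 for COL15A1, -0.044 for COL27A1 0.34 for COL8A2 and -2.40 for COL21A1 (sign kept). Scaling by totals gave -0.018 for COL4A5, and limma-voom 0.032 for COL17A1. In single-library omissions the ranges were -0.25 to 0.35 for COL4A5, -0.52 to 0.45 for COL17A1, -0.030 to 0.15 for COL15A1, -0.046 to 0.22 for COL11A1, -0.10 to 0.046 for COL18A1, -0.033 to 0.25 for COL27A1, -2.32 to 0.25 for COL21A1, -0.018 to 0.24 for COL16A1, -0.10 to 0.017 for COL6A1, -0.11 to 0.031 for COL6A3, -0.88 to 0.21 for COL10A1, -0.55 to 0.16 for COL24A1 and -0.89 to 0.22 for COL8A2. No paired analysis was possible because the groups share no replicate numbers. Depth limits COL2A1, COL26A1 and the other genes under 1 CPM, which rest on few fragments.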
